A study of Mus musculus with 30 samples.

Results

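Elastic fibres are the extensible cables of the lung matrix, and the 10 genes followed here encode their core and its scaffold: *Eln*, *Fbn1*, *Fbn2*, *Fbln1*, *Fbln2*, *Fbln5*, *Efemp2*, *Mfap2*, *Mfap4* and *Mfap5*. They were taken by gene symbol from the 55487 genes counted in each library, and every symbol matched a single gene. Tropoelastin, the product of *Eln*, is laid down on microfibrils of fibrillin with the help of fibulins and microfibril-associated glycoproteins, and is then crosslinked by lysyl oxidases. Alveoli and airways recoil through these fibres, fibroblasts and smooth muscle cells make most of them, and their loss is a hallmark of emphysema.

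The libraries came from organoid co-cultures of freshly isolated Epcam+ lung cells of wild-type mice and CCL206, a mouse lung fibroblast line stopped from dividing with mitomycin C. Each of 4 mice gave cultures exposed for 72 hours to vehicle, to an exacerbation cocktail (EC: TNFα, IL-1β and IL-6, with IL-8 in the labels and its mouse counterpart KC in the methods for mouse cells), to a fibrosis cocktail (IPFc: TGF-β and TNFα, the interleukins IL-33, IL-13, IL-8, IL-4 and IL-1β, and TSLP with CCL2) or to 2 ng/ml TGF-β. All cultures were grown in Matrigel with 300000 Epcam+ cells and as many fibroblasts. They were then re-sorted with Epcam microbeads into an Epcam+ fraction, called epithelial libraries, and an Epcam- fraction, called fibroblast libraries. There were 30 libraries in 8 groups of 4, except fibroblast vehicle (n = 3, mice 1, 3 and 4) and epithelial TGF-β (n = 3, mice 2, 3 and 4). The fibroblasts were 1 cell line in every culture, so the mouse number marks the donor of the epithelial cells and the culture, not a fibroblast donor, and the TGF-β concentration within IPFc is not given in the sources used here.

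Library totals ran from 5113828 to 20317181 reads, and the fibroblast EC library of mouse 1 was both the smallest and the least like its group (median r = 0.964). Of the fibroblast markers, 29 of 30 had reads in every fibroblast vehicle library, with *Thy1* at 0, and all 30 epithelial markers had reads in every epithelial vehicle library. Both fractions also held reads of the other fraction's markers. By the median ratio of marker genes between the paired libraries of a culture, fibroblast markers in epithelial libraries stood at 6.24% ± 2.37 (SD, n = 4) of their fibroblast level with vehicle, 12.3% ± 4.97 (n = 4) with EC, 11.8% ± 5.00 (n = 4) with IPFc and 31.1% ± 0.992 (n = 3) with TGF-β. Epithelial markers in fibroblast libraries stood at 22.2% ± 7.93 (n = 3), 44.3% ± 10.1 (n = 4), 19.7% ± 9.79 (n = 4) and 2.25% ± 1.33 (n = 4) of their epithelial level in the same order. Single markers lay far apart. With vehicle the median of *Epcam* was 30.9 CPM in fibroblast and 216 CPM in epithelial libraries, and that of *Sftpc* 3054 and 3795 CPM. With EC *Sftpc* was at 2227 and 1810 CPM. A share subtracted below is the median ratio of a library, so it can be wrong for a single gene. In bulk libraries such as these, a lower level from fewer cells of a type and from less RNA per cell cannot be told apart. Nor can RNA carried over from the other fraction be told apart from marker expression by the sorted cells themselves.

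The untreated fibroblasts held an uneven set of elastic fibre transcripts. Per length of transcript (RPKM, over the union of exons), *Fbln2* led with 194 ± 14.99 (SD, n = 3), followed by *Efemp2* with 45.9 ± 3.62, *Fbn1* with 21.7 ± 5.80 and *Fbln5* with 5.34 ± 0.296. These 4 levels did not overlap between genes. *Mfap4*, *Fbln1* and *Mfap5* lay far below, at 0.334 ± 0.0827, 0.328 ± 0.112 and 0.217 ± 0.154 RPKM, and did not differ from each other beyond their spread. *Eln* itself had 1, 2 and 3 reads in the vehicle libraries of mice 1, 3 and 4. *Fbn2* had at most 2 reads in any fibroblast library and *Mfap2* at most 2 in any fibroblast and 3 in any epithelial library. Thus 8 of the 10 genes passed the filter of a mean count of 1 in the fibroblast libraries, without *Fbn2* and *Mfap2*. The same number passed in the epithelial libraries, without *Mfap2* and *Mfap4*, and there *Eln* passed through its TGF-β libraries alone.

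**Figure D1:**
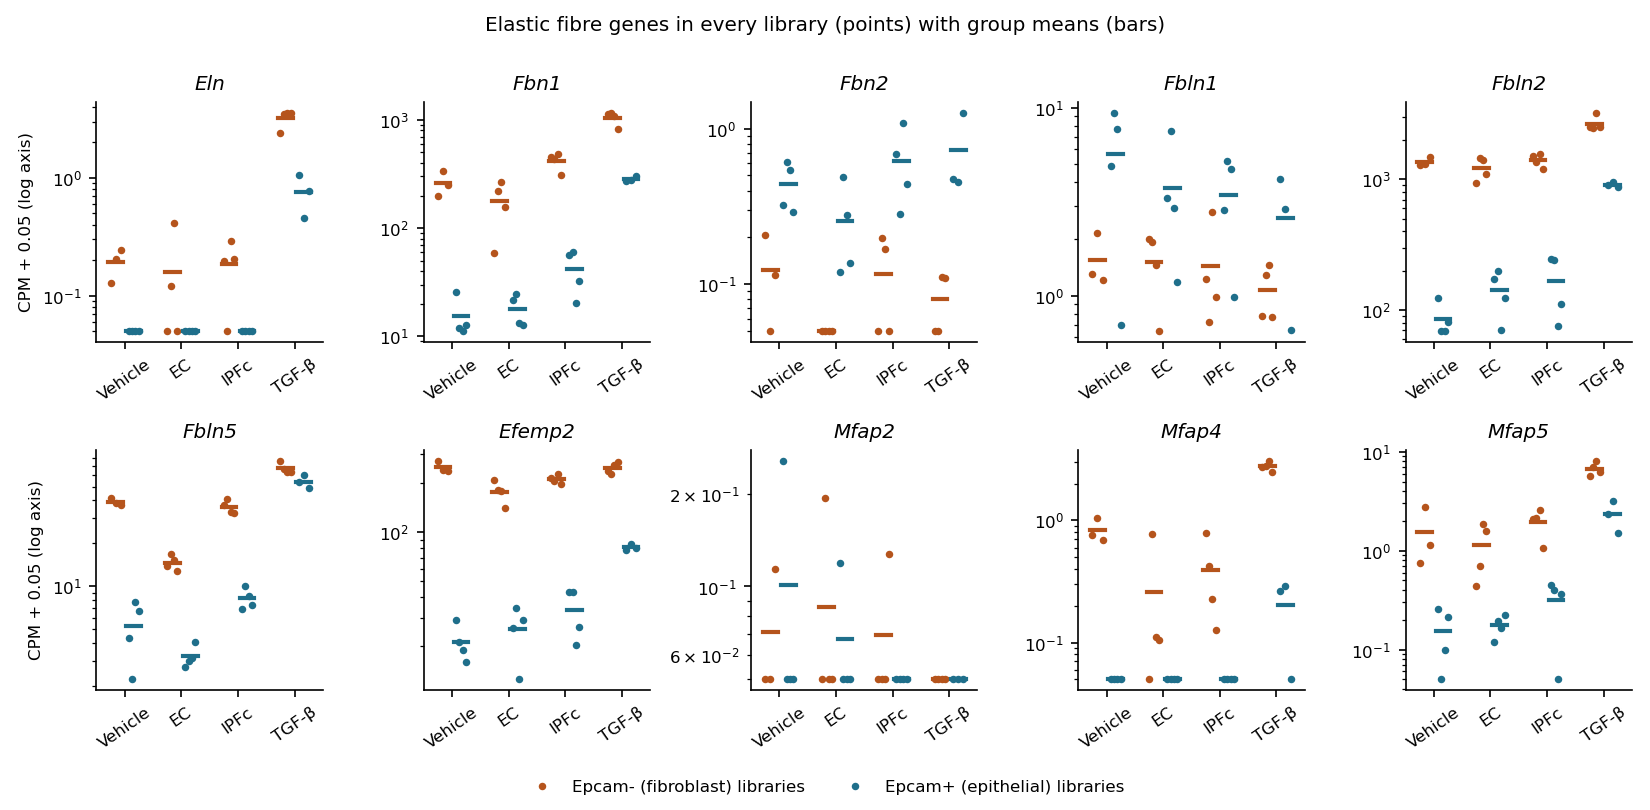
Counts scaled to the library total (CPM, plus 0.05, log axis) of the 10 elastic fibre genes in each of the 30 libraries by treatment, in fibroblast (brown) and epithelial (blue) libraries, with bars at the group means and a separate axis range per gene. With TGF-β, *Eln* rises to 2.36 to 3.49 CPM in fibroblast libraries from at most 0.365 CPM in all other libraries of that fraction, and *Fbn1*, *Fbln2* and *Fbln5* are higher in both fractions, while *Efemp2* stays level in fibroblasts.

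TGF-β raised most of the set in the fibroblast libraries. Of the 8 genes tested, 6 rose and none fell, where 6.39% of all tested genes rose, and the median change of the 8 was 1.40 on the log2 scale against -0.02 over all genes (edgeR quasi-likelihood test with mouse as a block and Benjamini-Hochberg adjustment, as for all adjusted p-values below). Each of the 6 was higher in 3 of 3 mice with both libraries, and for each the TGF-β values lay above all vehicle values. Such separation of groups was read for the elastic fibre genes alone, without a share over all genes. The libraries with TGF-β also had the lowest epithelial marker ratio (2.25% against 22.2% with vehicle). With the partner's epithelial share subtracted, 5 of the 6 still passed, and *Mfap4* did not (adjusted p = 0.468).

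*Eln*, the elastin gene, had 29, 50, 57 and 58 reads in the TGF-β libraries of mice 1 to 4. In the other 11 fibroblast libraries it had 0 to 6 reads. The groups with TGF-β and without it were fully apart, although even with TGF-β *Eln* reached only 0.386 ± 0.0675 RPKM (n = 4). Its log2 fold change was 4.61 ± 0.70 (SE; adjusted p = 9.65e-05). Over the pooled reads, 194 against 6, the ratio of CPM was 22.3, with an exact interval for counting error alone of 10.1 to 61.5 (95%).

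The fibrillin *Fbn1*, which forms the backbone of microfibrils, was at 199, 338 and 251 CPM with vehicle in mice 1, 3 and 4. With TGF-β it was at 1140, 1157, 1083 and 826 CPM in mice 1 to 4. The lowest TGF-β library, of mouse 4, still held more than the highest vehicle library, of mouse 3. The change was 4.26-fold (log2 2.09 ± 0.29, adjusted p = 3.65e-05). *Fbn2*, the fibrillin best known from development, had 0, 0, 1 and 1 reads with TGF-β and was not tested in this fraction.

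Among the fibulins, *Fbln2* and *Fbln5* rose and *Fbln1* and *Efemp2* did not pass the test. *Fbln2*, whose product binds fibrillin and basement membrane proteins, went from 1296, 1305 and 1483 CPM to 2499, 2475, 3215 and 2512 CPM (2.09-fold, log2 1.06 ± 0.15, adjusted p = 5.94e-05). *Fbln5*, which tethers elastin to microfibrils and to integrins, went from 41.4, 38.1 and 37.3 CPM to 75.3, 66.6, 63.7 and 63.7 CPM (1.82-fold, log2 0.87 ± 0.12, adjusted p = 3.44e-05). Neither gene's groups overlapped. *Efemp2*, which encodes fibulin-4 and brings lysyl oxidase to tropoelastin, was at 272, 240 and 237 CPM with vehicle and at 236, 227, 257 and 270 CPM with TGF-β. These ranges overlapped, and the log2 difference was 0.13 with a 95% interval of -0.16 to 0.41 (adjusted p = 0.607). *Fbln1*, a fibulin of basement membranes and elastic fibres, was at 1.15 to 2.09 CPM and 0.720 to 1.41 CPM (log2 -0.45, interval -1.41 to 0.51, adjusted p = 0.582).

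The microfibril glycoproteins were rare transcripts. *Mfap5*, which encodes MAGP-2, had 9, 35 and 17 reads with vehicle and 69, 102, 130 and 104 with TGF-β, which in CPM is 0.708 to 2.71 and 5.60 to 7.97 (log2 2.41 ± 0.38, adjusted p = 0.000161). *Mfap4*, whose product binds elastin and fibrillin, had 9, 13 and 10 reads and then 33, 40, 49 and 41 (log2 1.74 ± 0.58, adjusted p = 0.0453). Both rose without overlap between the groups, but the call of *Mfap4* was lost without mouse 1, 3 or 4 (adjusted p = 0.0682, 0.176 and 0.203). *Mfap2*, which encodes MAGP-1, had no read in any TGF-β library, which allows up to 0.0501 CPM over the fibroblast group (3 reads in the pooled total).

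**Figure D2:**
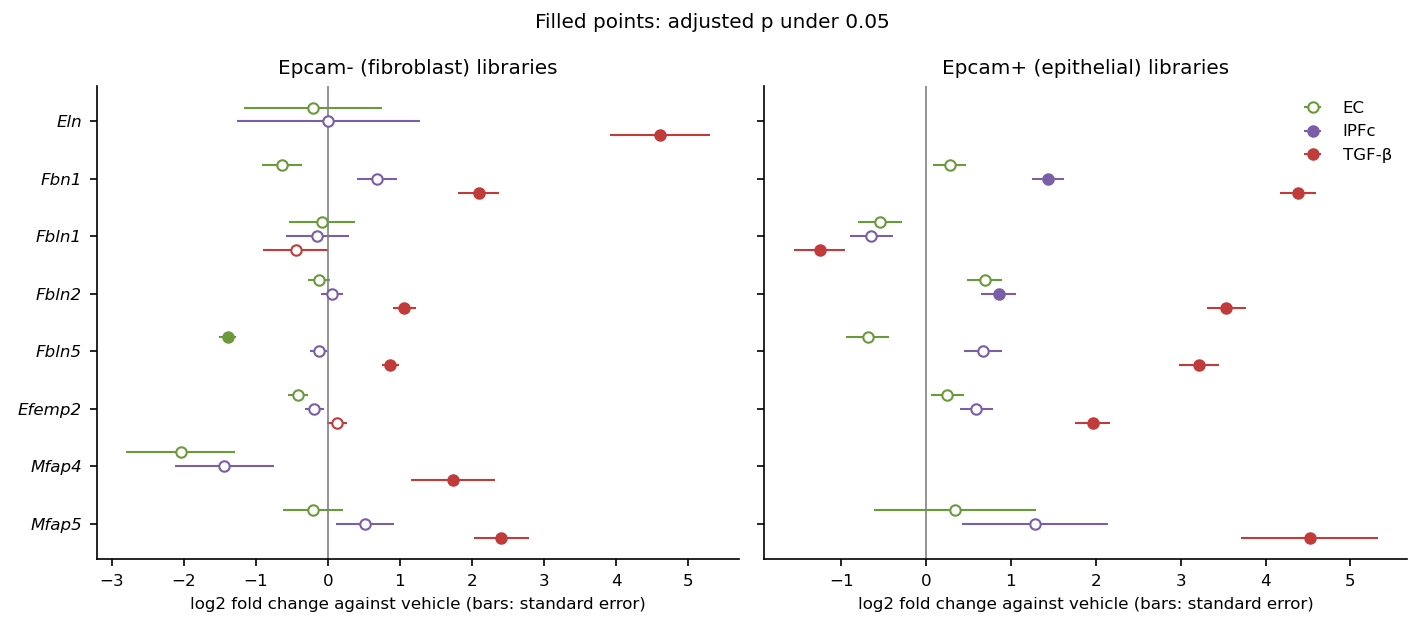
Log2 fold changes against vehicle with standard errors for EC, IPFc and TGF-β in fibroblast (left) and epithelial (right) libraries, with filled points where the adjusted p was under 0.05. *Eln* is left out on the right because it had no read in the epithelial vehicle libraries, *Mfap4* because it was not tested there, and *Fbn2* and *Mfap2* in both. With TGF-β, 6 of 8 genes tested rose on the left, and with EC *Fbln5* alone passed, with a fall of 1.39.

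With EC, the only elastic fibre gene called in the fibroblast libraries was *Fbln5*. It was at 13.9, 16.6, 15.1 and 12.7 CPM in mice 1 to 4, against 41.4, 38.1 and 37.3 CPM with vehicle. All EC values lay below all vehicle values, and the gene was lower in 3 of 3 mice, at 0.382 times the vehicle level (log2 -1.39 ± 0.12, adjusted p = 7.51e-06). This was 1 of 8 genes tested, where 2.84% of all genes fell. The epithelial marker ratio was also higher with EC than with vehicle (44.3% against 22.2%), and with that share subtracted *Fbln5* still fell by 1.05 (adjusted p = 0.0131).

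No other elastic fibre gene passed with EC. *Efemp2* was at 210, 182, 178 and 142 CPM, below all vehicle libraries, with a log2 change of -0.41 ± 0.13 (adjusted p = 0.0777). Without the small EC library of mouse 1, *Efemp2* passed the test, at -0.51 (adjusted p = 0.00674). Over 12 alternatives in processing, the log2 change of *Efemp2* ran from -0.51 to -0.03, and it was not called in 10. *Fbn1* was at 59.1, 220, 269 and 158 CPM, overlapping with vehicle, and mouse 1 was far below the rest (log2 -0.63 ± 0.27, adjusted p = 0.182). *Fbln2* was at 936 to 1467 CPM (log2 -0.12, adjusted p = 0.686). *Mfap4* had 0, 10, 1 and 1 reads (log2 -2.04 ± 0.76, adjusted p = 0.121), so that mouse 2 alone was at the vehicle level. *Eln* had 0, 1, 6 and 0 reads, *Fbln1* was at 0.596 to 1.96 CPM and *Mfap5* at 0.391 to 1.82 CPM, and all of these overlapped with vehicle. Without any library of mouse 1, *Fbn1* passed (log2 -0.48, adjusted p = 0.00813), and without those of mouse 2, *Mfap4* did (log2 -3.60, adjusted p = 0.0278). Over the 12 alternatives, *Fbn1* ran from -0.81 to -0.22 and was not called in 9. *Mfap4* ran from -3.74 to -1.47 and was not called in 8.

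IPFc, which contains TGF-β, changed none of the 8 genes tested in the fibroblast libraries by the adjusted p of edgeR, where 0.449% of all genes changed. At an unadjusted p under 0.05, *Fbn1* passed alone, and DESeq2 called 0. The 0.449% is of adjusted calls, and the unadjusted count has no share of all genes beside it. *Fbn1* was at 451, 432, 488 and 312 CPM, higher than vehicle in 3 of 3 mice (log2 0.68 ± 0.27, unadjusted p = 0.0243, adjusted p = 0.605). It passed without the EC library of mouse 1 in the fit (log2 0.69, adjusted p = 0.00325). *Fbln5* was at 37.1, 40.8, 33.2 and 32.4 CPM, close to vehicle (log2 -0.13, 95% interval -0.38 to 0.12). *Efemp2* was at 198 to 227 CPM, below all vehicle libraries and lower in 3 of 3 mice (log2 -0.18, 95% interval -0.47 to 0.10). *Mfap4* had 1 to 10 reads (log2 -1.44 ± 0.68, adjusted p = 0.773). *Eln* had 2, 0, 4 and 2 reads.

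Set against TGF-β alone, IPFc left 6 of the 8 genes lower, where 5.33% of all genes were lower. They were *Eln* (log2 -4.60 ± 0.61), *Mfap4* (-3.17 ± 0.58), *Mfap5* (-1.89 ± 0.33), *Fbn1* (-1.41 ± 0.25), *Fbln2* (-1.005 ± 0.14) and *Fbln5* (-0.99 ± 0.11), each lower in 4 of 4 mice and with adjusted p-values between 2.29e-06 and 0.000677. These are the 6 genes that rose with TGF-β against vehicle, and both comparisons use the same TGF-β libraries. *Efemp2* (log2 -0.31, adjusted p = 0.102) and *Fbln1* (log2 0.30, adjusted p = 0.734) did not pass, although *Efemp2* did without mouse 1 (adjusted p = 0.0226). Over 11 alternatives in processing, the log2 change of *Efemp2* ran from -0.345 to -0.014, and it was not called in 9. The epithelial marker ratio differed between the same groups (19.7% with IPFc, 2.25% with TGF-β). With that share subtracted, *Eln*, *Fbln2* and *Fbln5* still passed, and *Fbn1*, *Mfap4* and *Mfap5* did not (adjusted p = 0.125, 0.0535 and 0.0716).

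The promoters of 3 fibulin and fibrillin genes that rose with TGF-β in fibroblasts and of 2 fibulin genes that did not are shown so that the upstream sequence of both kinds can be read side by side. Each is the 250 bases before the most upstream start, 5′ to 3′ on the gene's strand, from RefSeq on GRCm38.p6, and capitals mark every CAGAC or its reverse complement GTCTG, the core letters of a SMAD box, which the transcription factors downstream of TGF-β bind.
Fbn1 (chr2:125506439-125506688, - strand): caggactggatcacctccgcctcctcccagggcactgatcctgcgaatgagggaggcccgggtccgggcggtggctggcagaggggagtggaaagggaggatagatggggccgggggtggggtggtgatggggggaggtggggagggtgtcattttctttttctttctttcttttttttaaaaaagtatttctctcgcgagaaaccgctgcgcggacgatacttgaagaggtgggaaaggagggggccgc
Fbln2 (chr6:91212514-91212763, + strand): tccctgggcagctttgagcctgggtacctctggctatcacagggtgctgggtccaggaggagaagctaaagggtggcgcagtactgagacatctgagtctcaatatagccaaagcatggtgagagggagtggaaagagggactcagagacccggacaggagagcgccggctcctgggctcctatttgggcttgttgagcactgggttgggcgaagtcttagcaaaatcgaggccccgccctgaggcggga
Fbln5 (chr12:101819120-101819369, - strand): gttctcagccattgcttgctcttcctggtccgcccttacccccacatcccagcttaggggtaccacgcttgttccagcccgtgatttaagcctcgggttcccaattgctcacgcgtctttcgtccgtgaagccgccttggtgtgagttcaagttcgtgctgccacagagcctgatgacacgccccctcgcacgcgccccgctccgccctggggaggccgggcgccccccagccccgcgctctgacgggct
Efemp2 (chr19:5473696-5473945, + strand): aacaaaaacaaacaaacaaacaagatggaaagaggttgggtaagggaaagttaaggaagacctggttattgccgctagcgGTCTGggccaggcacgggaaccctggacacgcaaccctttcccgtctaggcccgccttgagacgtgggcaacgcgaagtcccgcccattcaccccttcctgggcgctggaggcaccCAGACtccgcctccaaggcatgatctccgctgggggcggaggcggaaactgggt
Fbln1 (chr15:85205699-85205948, + strand): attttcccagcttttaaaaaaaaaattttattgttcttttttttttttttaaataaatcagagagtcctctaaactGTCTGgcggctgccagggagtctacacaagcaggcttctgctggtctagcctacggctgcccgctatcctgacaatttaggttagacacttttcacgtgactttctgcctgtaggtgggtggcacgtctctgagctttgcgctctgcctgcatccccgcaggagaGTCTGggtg
The first 3, of the genes that rose, hold no such letters, while *Efemp2* holds 2 matches and *Fbln1* 2. Of all 27025 promoters of this length, 42.2% hold at least 1. An AP-1 site (TGACTCA or its reverse complement TGAGTCA), found in 4.43% of all promoters, is in none of the 5. A GC box (GGGCGG or CCGCCC), found in 33.0%, is once in *Fbn1* and *Fbln2*, at 2 places in *Fbln5* and at 2 in *Efemp2*, and not in *Fbln1*. No match of a motif overlaps a match of another in these windows, and the matches are descriptions of the letters in these windows. The table matched 6 of the 10 members, the 5 shown and *Mfap2*, and promoters of the other members were not analysed here.

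The partners that build and crosslink the fibre moved in both directions with TGF-β. Of 26 genes tested of a list of 29 for assembly, crosslinking and microfibril partners, 8 rose and 8 fell in the fibroblast libraries (median log2 change 0.24), where 6.39% of all genes rose and 12.8% fell. *Lox*, the lysyl oxidase that crosslinks tropoelastin, rose by 1.36 ± 0.15 (adjusted p = 2.76e-06). The 4 others with the smallest adjusted p fell: *Tnxb* (tenascin-X, -4.11 ± 0.25), *Thsd4* (ADAMTSL6, which promotes fibrillin-1 assembly, -4.17 ± 0.33), *Efemp1* (fibulin-3, -3.59 ± 0.37) and *Fbln7* (fibulin-7, -2.07 ± 0.23). With EC 3 of the 26 rose and 8 fell, where 4.28% of all genes rose and 2.84% fell, with *Lox* (1.00 ± 0.15) and *Dcn* (decorin, 0.95 ± 0.15) higher and *Tnxb* (-1.51 ± 0.23), *Loxl3* (a lysyl oxidase relative, -0.91 ± 0.14) and *Ltbp4* (which links latent TGF-β and fibulins to microfibrils, -0.89 ± 0.15) lower. With IPFc *Lox* rose (0.92 ± 0.15, adjusted p = 0.00682) and *Tnxb* fell (-1.30 ± 0.22, adjusted p = 0.00916), and the other 24 were not called, where 0.305% of all genes rose and 0.144% fell. With the epithelial share subtracted, 8 of the 16 calls with TGF-β remained, among them *Lox*, *Tnxb* and *Fbln7*, while *Thsd4* and *Efemp1* were lost (adjusted p = 0.288 and 0.485). Of the 11 calls with EC, 3 remained, *Lox* and *Dcn* among them, and none of the 8 falls. Neither call with IPFc remained (adjusted p = 0.361 for *Lox* and 0.342 for *Tnxb*).

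**Figure D3:**
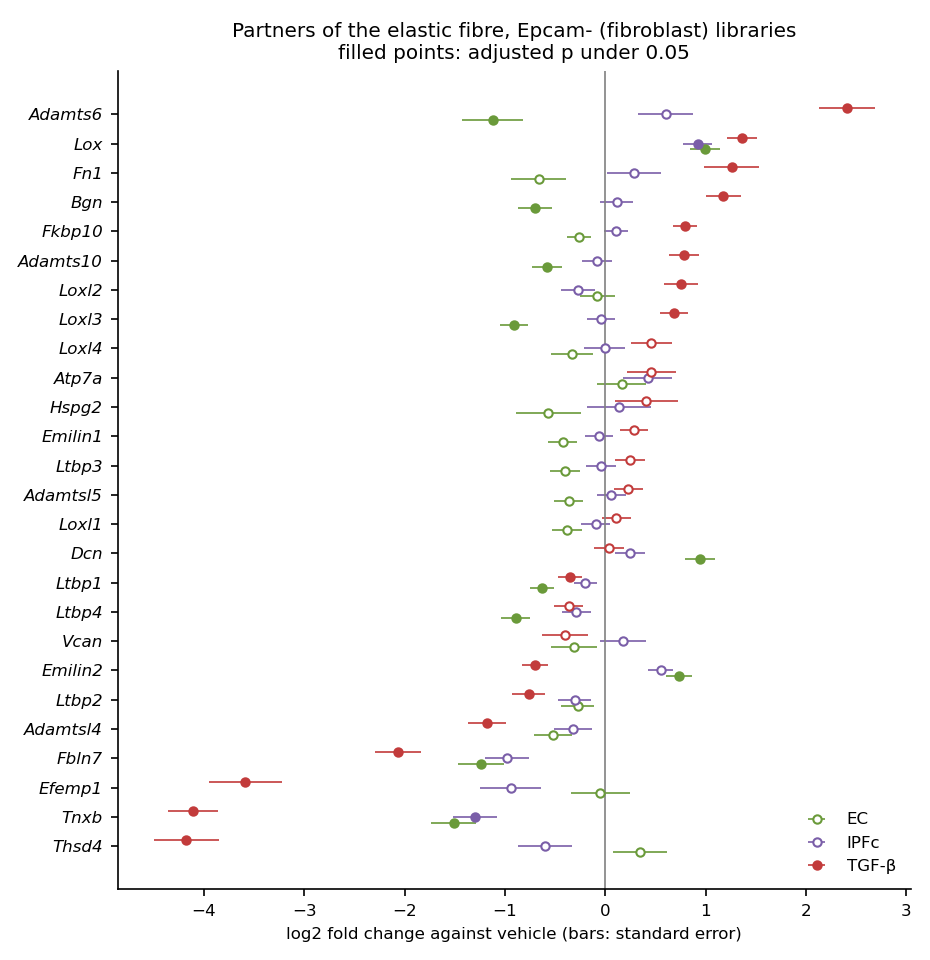
Log2 fold changes against vehicle with standard errors of the 26 tested assembly and crosslinking partners in fibroblast libraries, ordered by the TGF-β change, with filled points where the adjusted p was under 0.05. *Thsd4* and *Tnxb* lie lowest with TGF-β (-4.17 and -4.11), and *Lox* is higher with all 3 exposures (1.00, 0.92 and 1.36 for EC, IPFc and TGF-β).

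Some of the enzymes that degrade elastin and of their inhibitors changed in the fibroblast libraries. With TGF-β 1 of 8 proteases rose (*Mmp2*, gelatinase A, 0.85 ± 0.12) and 1 fell (*Mmp9*, gelatinase B, -1.09 ± 0.15). With EC *Mmp12*, macrophage elastase, rose by 2.01 ± 0.33 (adjusted p = 0.00185) and *Mmp2* fell by 0.70. Each of these counts is 1 of 8, beside 6.39% of all genes higher and 12.8% lower with TGF-β and 4.28% and 2.84% with EC. Of 6 inhibitors, *Timp1* rose with TGF-β (1.92 ± 0.18) and *Slpi* (-3.73 ± 0.37), *Timp4* (-3.17 ± 0.79) and *Timp2* (-0.40 ± 0.14) fell, and with EC *Slpi*, an inhibitor of neutrophil elastase, rose by 3.21 ± 0.30 and *Timp3* fell by 1.17. *Slpi* is also made by airway epithelium. With the epithelial share subtracted, *Mmp9*, *Mmp12*, *Timp1*, *Timp2* and *Slpi* kept these calls, and *Mmp2* (adjusted p = 0.0566 with TGF-β and 0.648 with EC), *Timp4* (adjusted p = 0.0554) and *Timp3* (adjusted p = 0.197) lost theirs. None of the 8 proteases or 6 inhibitors passed with IPFc (edgeR), where 0.449% of all genes did. Of 12 elastin receptor subunits and integrins, 6 rose with TGF-β and 1 fell, led by *Itgb3* (3.65 ± 0.15), the integrin β3 chain, and *Itgb5* (1.74 ± 0.13), whereas *Itgb6*, an integrin chain of epithelial cells, fell by 1.88. All genes stood at the same 6.39% higher and 12.8% lower, and with the epithelial share subtracted 2 of the 7 calls remained, *Itgb3* and *Itgb5*. With IPFc *Itgb3* was the only one of the 12 called (1.39 ± 0.14, adjusted p = 0.000134, and 0.0418 with the share subtracted), where 0.449% of all genes were.

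Genes that answer TGF-β or cytokines were read in the same libraries. With TGF-β 11 of 14 TGF-β response genes rose and 1 fell, among them *Acta2* (smooth muscle actin, 3.25 ± 0.14), *Tagln* (4.22 ± 0.20) and *Pmepa1* (2.41 ± 0.14), beside 6.39% and 12.8% of all genes. With the epithelial share subtracted 8 of these 12 calls remained, the 3 named included. With IPFc 0 of these 14 were called, where 0.449% of all genes were. With EC *Acta2* (-0.64 ± 0.12) and *Tagln* (-0.87 ± 0.21) fell, and 3 of 14 cytokine response genes rose, the acute phase genes *Saa3* (5.84 ± 0.47) and *Lcn2* (4.60 ± 0.26) and the chemokine *Cxcl5* (3.78 ± 0.31), and 2 fell, beside 4.28% and 2.84% of all genes. The epithelial marker ratio was 44.3% with EC and 22.2% with vehicle in these libraries. With that share subtracted *Saa3* and *Lcn2* still rose (adjusted p = 0.0194 and 0.0127), while *Cxcl5*, which turned to -4.43 (adjusted p = 0.892), *Acta2* (adjusted p = 0.649), *Tagln* (adjusted p = 0.66) and the 2 that fell were not called.

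The genes with changes most like those of *Eln* were *Tagln*, *Tnnt2*, *Acta2*, *Col7a1* and *Itgb3*. Likeness was the root mean square difference over 6 log2 fold changes (3 exposures in both fractions), among 9556 genes with at least 10 CPM on average in fibroblast libraries, and came to 0.697, 0.744, 0.857, 0.911 and 1.04. The 6 changes share vehicle libraries, and those of *Eln* in the epithelial fraction rest on libraries without a read.

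In the untreated epithelial libraries the set was lower than in fibroblasts, with an exception. Of 9 genes tested between the fractions, 7 were lower in epithelial libraries, where 28.2% of all genes were, and 1 was higher, where 27.8% were. *Fbn1* was at 25.4, 11.9, 11.1 and 12.6 CPM in the epithelial vehicle libraries of mice 1 to 4 (log2 -4.07 ± 0.37 against fibroblasts), *Fbln2* at 123, 68.8, 69.4 and 81.4 CPM (-3.95 ± 0.31), *Efemp2* at 29.1, 21.3, 19.0 and 16.05 CPM (-3.48 ± 0.23) and *Fbln5* at 4.30, 2.16, 7.63 and 6.61 CPM (-2.79 ± 0.23). None of these 4 overlapped with the fibroblast vehicle libraries (adjusted p between 1.95e-12 and 5.18e-10), and no share of all genes is given for such separation. *Eln* and *Mfap4* had no read in the 4 epithelial vehicle libraries, which allows up to 0.0501 CPM over the group, and *Mfap5* had 0 to 3 reads. The call of *Eln* (adjusted p = 0.0258), which passed the filter of this fit through its TGF-β libraries alone, was lost without mouse 1, 3 or 4 (adjusted p = 0.0546, 0.0624 and 0.0978).

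*Fbln1* was the gene called higher in the epithelial fraction (log2 1.50 ± 0.46, adjusted p = 0.00685). It had 71, 116, 155 and 8 reads with vehicle, or 4.84, 9.29, 7.63 and 0.645 CPM in mice 1 to 4. Mouse 4 was low in all of its 4 epithelial cultures, at 0.604 to 1.12 CPM, while the 11 epithelial libraries of the other mice were at 2.79 to 9.29 CPM. The call was lost without mouse 1 or without mouse 3 (adjusted p = 0.0879 and 0.131). *Fbn2* had 4, 7, 10 and 3 reads in the epithelial vehicle libraries against 2, 0 and 1 in fibroblasts (log2 2.28 ± 0.99, adjusted p = 0.0538; 0.0382 without mouse 1).

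These epithelial values were set beside the fibroblast markers of the same libraries. For this, the ratio of a gene between the paired libraries of a culture was divided by the same ratio for fibroblast markers. For *Fbln2* the median of this quotient was 0.978, 0.946, 0.977 and 1.09 with vehicle, EC, IPFc and TGF-β. For *Fbn1* it was 0.885, 0.845, 0.835 and 0.850, and for *Efemp2* 1.43, 1.33, 1.30 and 1.09. Over single cultures *Fbln2* stayed nearest to the markers, at 0.888 to 1.20. *Fbn1* ranged from 0.631 to 2.13, both with EC, and *Efemp2* from 0.719 with EC to 1.80 with vehicle. *Fbln5* stood at 2.11, 1.86, 1.83 and 2.63, and it was above the markers in every culture of all groups. It ranged from 1.07 to 4.52 with vehicle, from 1.11 to 3.79 with EC and from 1.21 to 4.84 with IPFc. With TGF-β it ranged from 2.38 to 3.11, within the ranges of vehicle and IPFc. *Fbln1* was at 61.1, 21.6, 23.8 and 6.62. *Eln* was at 0 in all cultures without TGF-β where its quotient could be formed and at 0.382 to 0.959 with TGF-β.

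**Figure D4:**
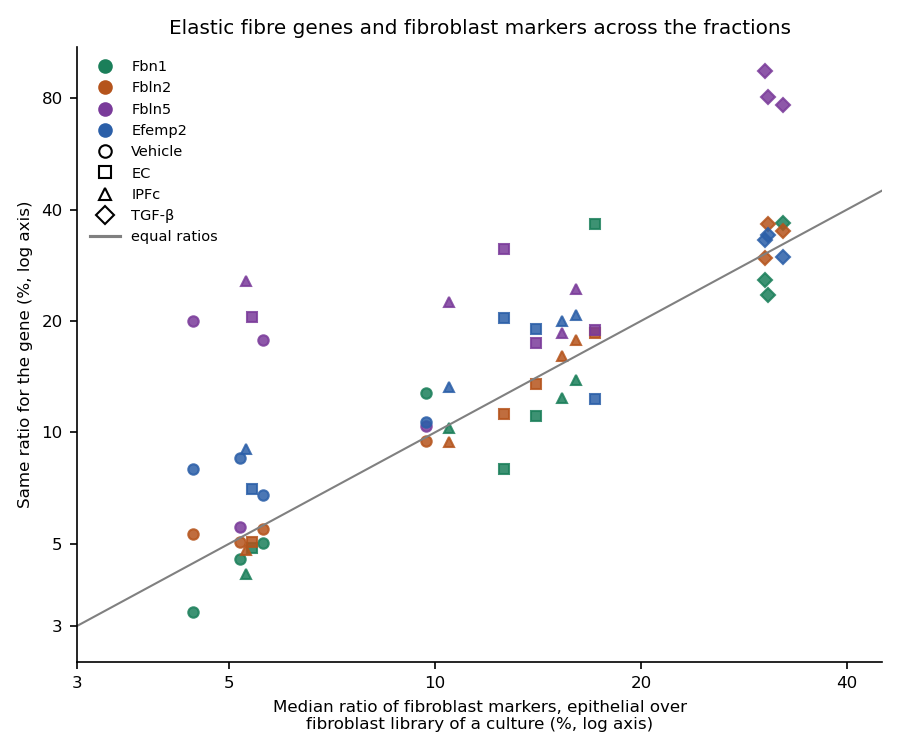
Ratio of CPM between the epithelial and the fibroblast library of a culture (%, log axis) for *Fbn1*, *Fbln2*, *Fbln5* and *Efemp2* against the median of the same ratio over fibroblast markers (%, log axis), with a point for each gene and culture, shapes for treatments and a grey line at equal ratios. *Fbln2* lies along the line in all groups. *Fbln5* lies above it in all groups, with TGF-β at 76.8 to 94.5% against 30.4 to 32.2% for the markers.

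TGF-β raised 5 of the 7 genes that passed the filter without their TGF-β libraries in the epithelial fraction, where 21% of all genes rose, and lowered 1, where 20.1% fell. The median change of the 7 was 3.21 against 0.03 over all genes. *Eln*, which entered through its TGF-β libraries and so had to differ, is described without a test. It had no read in the vehicle, EC or IPFc libraries and 19, 5 and 6 reads with TGF-β in mice 2, 3 and 4, at least 15.2-fold higher when the vehicle group is set at its floor of 3 pooled reads. *Fbn1* was at 272, 280 and 304 CPM (log2 4.38 ± 0.21) and *Fbln2* at 903, 953 and 881 CPM (3.54 ± 0.23). *Fbln5* was at 53.6, 60.2 and 48.9 CPM (3.21 ± 0.23), against 63.7 to 75.3 CPM in the fibroblast libraries. *Efemp2* was at 77.4, 85.1 and 80.5 CPM (1.96 ± 0.21), and *Mfap5* had 43, 39 and 12 reads (4.52 ± 0.80). For these 5 the TGF-β values lay above every vehicle value, with adjusted p-values from 2.51e-12 to 0.000114. This separation was read for the elastic fibre genes alone, without a share over all genes.

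Beside these changes, 27 of 29 tested fibroblast markers rose in the same comparison, with a median of 2.69, and the marker ratio rose 4.98-fold (log2 2.32). With the fibroblast share subtracted, *Fbln5* still passed (adjusted p = 0.000146), while *Fbln2* and *Mfap5* did not (adjusted p = 0.21 and 0.191) and *Efemp2* turned to -0.081 (adjusted p = 0.965). Subtraction leaves 0 reads where a gene's ratio lies under the marker ratio. For *Fbn1* this left 0, 0 and 312 reads with TGF-β in mice 2, 3 and 4 and 88, 0, 0 and 0 with vehicle in mice 1 to 4, so nothing is read from its subtracted test. *Eln* had 0 reads left in all 3 TGF-β libraries and was not tested after subtraction. *Fbln1* was the gene that fell, from the values above to 4.14, 2.84 and 0.604 CPM, lower in 3 of 3 mice (log2 -1.25 ± 0.30, adjusted p = 0.00222). Because mouse 4 sat apart, the groups overlapped, and the call was lost without mouse as a block (adjusted p = 0.201) and with the fibroblast share subtracted (log2 -1.02, adjusted p = 0.0583). *Fbn2* had 8, 5 and 10 reads (log2 0.54, 95% interval -1.004 to 2.08), and *Mfap4*, with 4, 3 and 0 reads, was not tested.

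With IPFc 2 of 8 genes rose in the epithelial libraries, where 2.57% of all genes rose. *Eln*, among the 8 through its TGF-β libraries alone, had no read with vehicle or IPFc and could not be called. *Fbn1* was at 55.8, 60.1, 20.3 and 32.2 CPM (log2 1.43 ± 0.19, adjusted p = 6.76e-05) and *Fbln2* at 244, 240, 74.98 and 112 CPM (0.86 ± 0.21, adjusted p = 0.0181), each higher than vehicle in 4 of 4 mice though the groups overlapped. *Fbln5* was at 6.86, 9.91, 8.53 and 7.30 CPM and *Efemp2* at 43.2, 42.9, 20.4 and 26.2 CPM, also higher in 4 of 4 mice but not past the test (adjusted p = 0.122 and 0.107), which *Efemp2* passed without mouse 3 (adjusted p = 0.0241). In the same comparison 15 of 29 fibroblast markers rose and none fell, with a median of 0.69. Subtraction of the fibroblast share left *Fbn1* with 0 reads in all 4 IPFc libraries. With it *Fbln2* was not called (adjusted p = 1), and that call was also lost without mouse 1 (adjusted p = 0.118), without mouse 2 (adjusted p = 0.143), without the block (adjusted p = 0.174) and in DESeq2 (adjusted p = 0.0679).

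With EC none of the 8 genes passed the edgeR test in the epithelial libraries, where 4.41% of all genes changed. *Eln*, among the 8 through its TGF-β libraries alone, had no read with vehicle or EC and could not be called. At an unadjusted p under 0.05 there were 3, *Fbln1*, *Fbln2* and *Fbln5*, and DESeq2 called 0. The 4.41% is of adjusted calls, and the unadjusted count has no share of all genes beside it. *Fbln2* was at 174, 198, 70.6 and 123 CPM, higher in 4 of 4 mice (log2 0.69 ± 0.20, adjusted p = 0.0599). *Fbln5* was at 2.63, 2.91, 3.09 and 3.98 CPM, lower in 3 of 4 mice (log2 -0.69 ± 0.25, adjusted p = 0.159). The values of *Fbln5* overlapped with vehicle because mouse 2 had the lowest vehicle level, at 2.16 CPM. *Fbln5* passed without mouse 2 (adjusted p = 0.0225) and *Fbln2* without mouse 3 (adjusted p = 0.0102). The fibroblast marker ratio in these libraries rose 1.97-fold with EC (log2 0.98). Subtraction of that share left *Fbln2* with 195, 0, 0 and 0 reads with EC in mice 1 to 4. With vehicle it left 0, 0, 237 and 0, so nothing is read from the subtracted test of *Fbln2*. *Fbln5* kept 4, 8, 40 and 28 reads with EC and 4, 2, 121 and 56 with vehicle.

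Compared with TGF-β, IPFc left 5 of the same 7 genes lower in the epithelial libraries, where 18.7% of all genes were lower: *Fbn1* (log2 -2.95 ± 0.20), *Fbln2* (-2.68 ± 0.23), *Fbln5* (-2.54 ± 0.22), *Efemp2* (-1.37 ± 0.21) and *Mfap5* (-3.23 ± 0.72). The fibroblast marker ratio was 11.8% with IPFc and 31.1% with TGF-β, and with that share subtracted *Fbln5* passed (adjusted p = 0.000784), *Fbln2* and *Mfap5* did not (adjusted p = 0.116 and 0.267), *Efemp2* turned to 1.04 (adjusted p = 0.514) and *Fbn1* kept reads in the TGF-β library of mouse 4 alone. *Fbln1* (log2 0.61, adjusted p = 0.135) and *Fbn2* (log2 -0.01, adjusted p = 0.995) were not called.

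The response to TGF-β differed between the fractions for 4 of 9 genes, where 20.2% of all genes rose more in the epithelial libraries. The difference, epithelial minus fibroblast change, was 2.50 ± 0.31 on the log2 scale for *Fbln2*, 2.37 ± 0.27 for *Fbln5*, 2.32 ± 0.38 for *Fbn1* and 1.87 ± 0.28 for *Efemp2* (adjusted p between 2.11e-07 and 4.00e-05), beside a median of 0.21 over all genes. *Mfap5* passed when mouse 1 was left out (adjusted p = 0.0418, against 0.0657 with all mice). Fibroblast markers gave a median difference of 2.31, and 27 of 29 were called. For EC and for IPFc none of the 9 genes was called as different between the fractions by edgeR, where 4.59% and 0.229% of all genes were. *Eln* and *Mfap4*, among the 9, had no read in the epithelial vehicle, EC or IPFc libraries, so these tests could not call them. In each of the 2 cases 4 genes had an unadjusted p under 0.05, *Fbn1*, *Fbln2*, *Fbln5* and *Efemp2*, and DESeq2 called 0. The 4.59% and 0.229% are of adjusted calls, and the unadjusted counts have no share of all genes beside them. The fall of *Fbln5* with EC was therefore not shown to differ between the fractions (log2 difference 0.69 ± 0.29, adjusted p = 0.218).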

How the data were processed

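Bulk RNA of 30 libraries was sequenced from a directional kit. Trimming used Trimmomatic 0.30 by the submitters' notes. The build is GRCm38 patch 6 in the paper and GRCm39 in the labels, and aligner and counter are not given in the sources used here. The authors deposited raw counts per Ensembl gene, not normalized. Strand use in counting is not given, so antisense and overlapping genes remain uncertain, and duplicate fragments count as reads. From the deposited counts, edgeR 4.0.16 (R 4.3.3; TMM, quasi-likelihood F test, two-sided, mouse as a block) was fitted per fraction over the 4 treatments, and over all 30 libraries for the fractions and the fraction by treatment interaction. Genes with a mean count of at least 1 were tested, and an adjusted p under 0.05 was a call. The replicate number is the mouse. Deviations of same-mouse libraries correlated by 0.320 (fibroblast) and 0.294 (epithelial) on average, those of other mice by -0.104 and -0.0948. P-values measure the spread between cultures. The biological coefficient of variation was 16.9% and 12.7%. No library repeated another (chi-square per degree of freedom at least 5.48). Standard errors were the log2 change over the root of F. CPM used total counts, and RPKM the exon union of GENCODE vM39. Marker ratios used fibroblast or epithelial markers of at least 50 CPM in the partner library. Where the partner was missing, a group mean stood in. This was the mean of the other vehicle fibroblast libraries for mouse 2 and of the other TGF-β epithelial libraries for mouse 1. Members and gene lists were chosen with earlier results of these data known. All members are named, and from other lists at most 5 genes per comparison by adjusted p. Alternatives were other filters, size factors, DESeq2 1.42.0, no block, each mouse left out, separate fits and subtracted shares. Scripts were tested on simulated data. The exact interval of the pooled *Eln* ratio and the floors cover counting error only. Intervals of log2 changes rest on the standard errors of the edgeR fit and include the spread between cultures.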

Additional observations from a re-analysis of the deposited data

Results flagged for a closer look

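The response to TGF-β was larger in the epithelial than in the fibroblast libraries for *Fbn1* (log2 difference 2.32), *Fbln2* (2.50), *Fbln5* (2.37) and *Efemp2* (1.87) by the interaction test, and the log2 rise of the fibroblast marker ratio in the same epithelial libraries was 2.32.

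In 54 groups of 4 libraries, 5 had a library far from the other 3, where chance gives about 1 in 20. They were *Eln* with TGF-β in the fibroblasts of mouse 1 (2.36 CPM, the lowest), *Fbn1* with vehicle in the epithelial library of mouse 1 (25.4 CPM, the highest), *Fbln2* with TGF-β in the fibroblasts of mouse 3 (3215 CPM, the highest), *Mfap4* with EC in the fibroblasts of mouse 2 (0.718 CPM, the highest) and the epithelial marker ratio with EC in the fibroblasts of mouse 4 (59.4%, the highest). The epithelial library with the high *Fbn1* also had the highest fibroblast marker ratio of its group, at 9.71%. Among the 54 groups, those of *Eln* in epithelial vehicle, EC and IPFc libraries had no reads and could not be flagged. The 1 in 20 therefore applies to fewer than 54 groups.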

How the results depend on the processing

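Of 1020 values of single genes under alternatives, 921 kept their direction and their side of the threshold, 23 lost and 34 gained a call, and 39 changed sign without a call on either side. Calls per comparison changed by over 1.5 times as follows, and the cause was not tested. For EC in fibroblasts (1 gene), 3 were called with no filter and in a separate fit, 2 in DESeq2 and 2 without the EC library of mouse 1. For IPFc in fibroblasts (0), 1 was called under no filter, in a separate fit and without that library. Leaving out that library and subtracting the epithelial share were chosen after seeing the data. For EC in epithelial libraries (0), 2 were called with no filter and 1 in a separate fit. For IPFc there (2), 4 were called with no filter, 1 in DESeq2 and 0 with the share subtracted. Subtraction left 3 of 6 genes called for IPFc against TGF-β in fibroblast libraries. In epithelial libraries it left 2 genes for TGF-β (7) and 2 for IPFc against TGF-β (6). *Eln*, in both of the larger counts through its TGF-β libraries alone, had no reads left and was not tested there, and *Fbn1*, in both of the smaller, kept reads with TGF-β in mouse 4 alone. The fraction difference gave 3 with no filter for EC and 3 for IPFc. Each mouse left out gave 1 to 3 for EC in fibroblasts, 0 to 1 for EC and 1 to 3 for IPFc in epithelial libraries. A called value changed sign 3 times, all with the share subtracted: *Fbn1* with IPFc (-7.01), *Efemp2* with TGF-β (-0.081) and *Efemp2* for IPFc against TGF-β (1.04).

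With no replicate block, 1 gene was called for IPFc in epithelial libraries, 6 in place of 7 for TGF-β, and 9 in place of 8 between the fractions. Other counts of members did not move. The pairing rests on the mouse of each culture.

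Calls over all genes ranged over the alternatives from 35 to 2054 for EC in fibroblasts (1284), from 3 to 263 for IPFc (81), from 831 to 5003 for TGF-β (3456) and from 652 to 4346 for IPFc against TGF-β (3143), each lowest with the epithelial share subtracted. In epithelial libraries they ranged from 319 to 1172 for EC (794), from 171 to 1118 for IPFc (740) and from 4562 to 7673 for TGF-β (7400). For the fraction difference they ranged from 10 to 1372 for EC (843), from 6 to 288 for IPFc (42) and from 2980 to 5585 for TGF-β (5055). Depth limits *Eln*, *Mfap2*, *Mfap4* and *Fbn2*, which had few or no reads in most libraries.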
